A study of Drosophila melanogaster with 3 samples.

Results

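The genes described here are 10 heat shock genes of Drosophila melanogaster, out of 13968 protein-coding genes on the chromosome arms. They were taken by name from the Ensembl gene set. The 6 small heat shock protein genes Hsp22, Hsp23, Hsp26, Hsp27, Hsp67Ba and Hsp67Bc lie in 1 cluster on 3L. Hsp83, Hsc70-4 and Hsc70-5 are 3 chaperone genes that are active without heat, and Hsf encodes the heat shock factor. For each gene the question was whether a region of CG3838 signal had its summit, the position of highest signal, within 1000 bp of a transcription start site (TSS).

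CG3838, now called brickwall, was mapped by chromatin immunoprecipitation and sequencing in whole embryos of both sexes, aged 0 to 24 h. All embryos came from 1 transgenic strain, CG3838-GFP, which stably makes CG3838 with green fluorescent protein (GFP) at its C-terminal end. The promoter that drives the fusion, and whether the untagged protein is also made, are not stated in the labels. There is 1 group of 3 biological replicates and no untagged line, and the labels name no heat treatment. The description says that the antibody recognised GFP, while the antibody field names CG3838.

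Cells that meet heat or other stress make chaperones, proteins that keep others folded. In flies this response is driven by the heat shock factor, which gathers into trimers and binds heat shock elements, arrays of short alternating units in the promoters of its targets. GAGA factor, which binds GAGAG repeats, keeps several of these promoters open before stress. The small heat shock proteins hold unfolding proteins in a soluble state, and several of the genes of the 3L cluster are also switched on during normal development.

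The thresholded list of the authors holds 2239 regions with signals from 103.5 to 1796, and these are exactly the strongest of 15592 pooled regions. The signal is the authors' own value on a scale that is not described, so it was read only through its rank within 1 list, rank 1 being the strongest. The lists of replicates 1, 2 and 3 hold 30000, 30000 and 21147 regions, and the strongest 2239 of each were used to compare them. The first pair stop at the same round number, and replicate 3 alone lists mitochondrial regions, 25 of them, all among its strongest 2239. With no read counts in the lists, depth is unknown and no interval can be given. No chromatin accessibility was measured, and binding of CG3838 cannot be told apart here from signal of open chromatin or of the antibody.

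Sequences from 4 sites are shown first, because each is the centre of a thresholded region at 1 of the genes. They are 201 bp of the reference sequence of dm6, read on the strand of the gene from 5′ to 3′. Capitals mark the GAA and TTC cores of 2 adjacent alternating heat shock units (NGAAN beside NTTCN, in either order), and GAGAG or its reverse complement CTCTC. The windows are chr3L:9377443-9377643 (reverse strand), chr3L:9383797-9383997 (forward), chr3L:3194153-3194353 (forward) and chr3R:15242431-15242631 (forward).
Hsp26 promoter summit: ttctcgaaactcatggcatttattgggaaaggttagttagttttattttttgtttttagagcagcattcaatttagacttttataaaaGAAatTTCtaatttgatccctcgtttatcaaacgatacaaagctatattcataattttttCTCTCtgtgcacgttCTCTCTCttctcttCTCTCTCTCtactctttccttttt
Hsp27 promoter summit: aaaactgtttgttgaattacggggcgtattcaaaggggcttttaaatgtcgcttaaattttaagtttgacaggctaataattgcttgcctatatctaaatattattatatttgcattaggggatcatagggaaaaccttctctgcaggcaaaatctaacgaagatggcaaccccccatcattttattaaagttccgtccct
Hsp83 intron summit: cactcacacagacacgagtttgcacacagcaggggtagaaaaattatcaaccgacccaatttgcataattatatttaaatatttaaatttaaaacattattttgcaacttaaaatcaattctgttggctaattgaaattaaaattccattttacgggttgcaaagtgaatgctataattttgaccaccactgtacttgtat
Hsc70-4 promoter summit: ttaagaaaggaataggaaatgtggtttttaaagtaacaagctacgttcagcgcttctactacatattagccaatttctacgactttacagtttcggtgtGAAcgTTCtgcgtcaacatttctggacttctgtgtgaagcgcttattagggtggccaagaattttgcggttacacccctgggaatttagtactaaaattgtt
The Hsp26 window holds 6 GAGAG matches and 1 whole pair of heat shock units, and the Hsc70-4 window holds 1 pair. The windows of Hsp27 and of the Hsp83 intron hold neither. A further Hsp26 pair begins 217 bp upstream of a TSS, just before the window. Its cores lie at the 5′ end of the Hsp26 window but are not marked or counted.

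A thresholded summit lay within 1000 bp of a TSS at 5 of the 10 genes, namely Hsp26, Hsp27, Hsp83, Hsc70-4 and Hsc70-5. Over all protein-coding genes the share was 13.3%, or 1864 of 13968. All 3 constitutive chaperone genes had such a summit, 2 of the 6 small heat shock protein genes had one, and Hsf had none. In the strongest 2239 regions of replicates 1, 2 and 3, 4, 4 and 5 of the genes had a summit, a mean of 4.33 ± 0.577 (SD, n = 3), where the shares over all protein-coding genes were 12.7%, 12.5% and 14.0%. Hsp26, Hsp27 and Hsc70-5 were counted in every replicate. Hsp83 was counted in replicates 1 and 2, and Hsp22 and Hsc70-4 in replicate 3.

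The difference between the classes was smaller in single replicates than in the thresholded list. The count of constitutive chaperone genes was 2 of 3 in each replicate, but not the same genes each time. The count of small heat shock protein genes was 2, 2 and 3 of 6, a mean of 2.33 ± 0.577 (SD, n = 3). With 3 genes in one class and 6 in the other, and neighbours that share regions, no test was made of this difference.

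**Figure D1:**
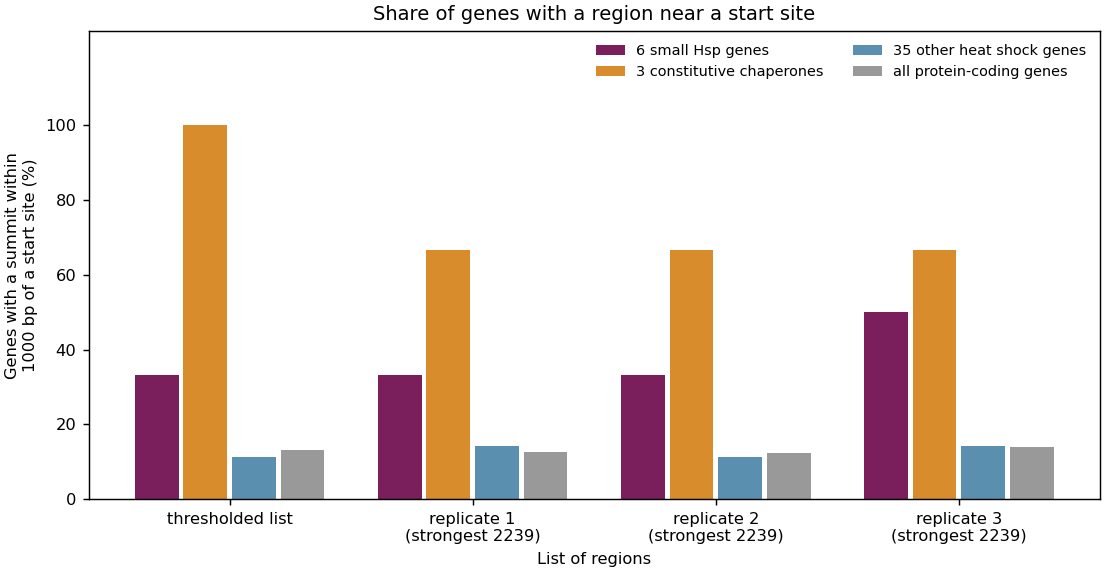
Share of genes (%) with a summit within 1000 bp of a TSS in the thresholded list and in the strongest 2239 regions of each replicate, for the 6 small heat shock protein genes (purple), the 3 constitutive chaperone genes (orange), 35 other heat shock and chaperone genes (blue) and all 13968 protein-coding genes (grey). The orange bars stand at 100% and then 66.7%, the purple bars at 33.3% or 50%, and the blue and grey bars between 11.4% and 14.3%.

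Neighbouring genes complicate these counts. A divergent partner, a gene on the other strand that starts within 1000 bp and runs the other way, was annotated for 8 of the 10 genes, all but Hsp23 and Hsp27, against 39.6% of protein-coding genes. Protein-coding genes with such a partner had a thresholded summit in 22.9% of cases, and 4 of the 8 heat shock genes with a partner had one. A region between a divergent pair is counted for both genes, and which of them it belongs to cannot be told from the lists.

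When weaker regions were included, most of the genes had a summit. In the pooled list 8 of 10 did, against 45.6% of protein-coding genes, and the added genes were Hsp22, Hsp67Bc and Hsf. With all regions of replicates 1, 2 and 3, the counts were 8, 7 and 7, a mean of 7.33 ± 0.577 (SD, n = 3), against 56.2%, 60.1% and 52.9% of protein-coding genes. All 3 constitutive chaperone genes were present in every replicate when all regions were taken, Hsp83 in replicate 3 through a weak region away from its promoter summit, and so were 5, 4 and 3 of the small heat shock protein genes. At these ranks a summit near a TSS is common among all genes, and the counts are read against those shares.

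**Figure D2:**
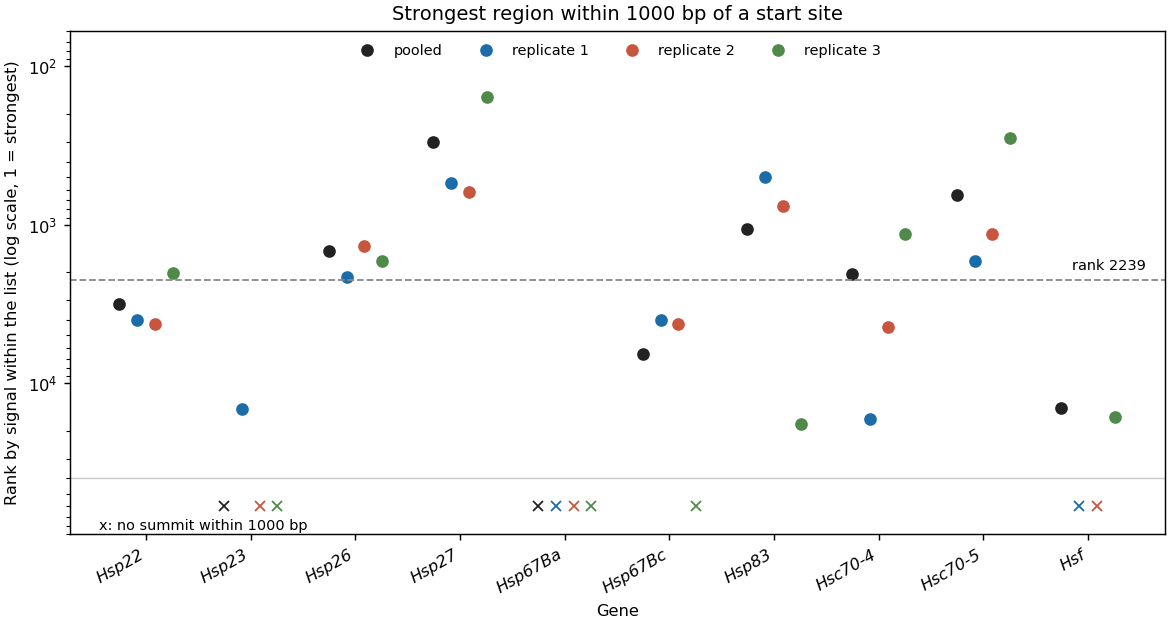
Rank by signal (log scale, 1 at the top being the strongest) of the strongest region with a summit within 1000 bp of a TSS of each gene, in the pooled list (black) and in replicates 1 (blue), 2 (red) and 3 (green); a cross marks a list with no such region, and the dashed line is rank 2239. Hsp26, Hsp27 and Hsc70-5 lie above the line in all 4 lists, and Hsp67Ba has a cross in all 4.

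The small heat shock protein genes occupy 14184 bp of 3L, from 9371511 to 9385694, together with CG4456 (also called Hsp67Bb), CG4461, the antisense RNA gene asRNA:CR43481 and, at its edge, the pseudogene CR43483. The span holds 2 thresholded summits and 6 pooled ones. That is 0.141 thresholded summits per kb against 0.0163 over all arms, and 0.423 pooled summits per kb against 0.113. The span was chosen as a gene cluster, and these densities were not set against the density of TSSs. The thresholded one rests on 2 summits. Replicates 1, 2 and 3 have 11, 5 and 4 summits inside the span.

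**Figure D3:**
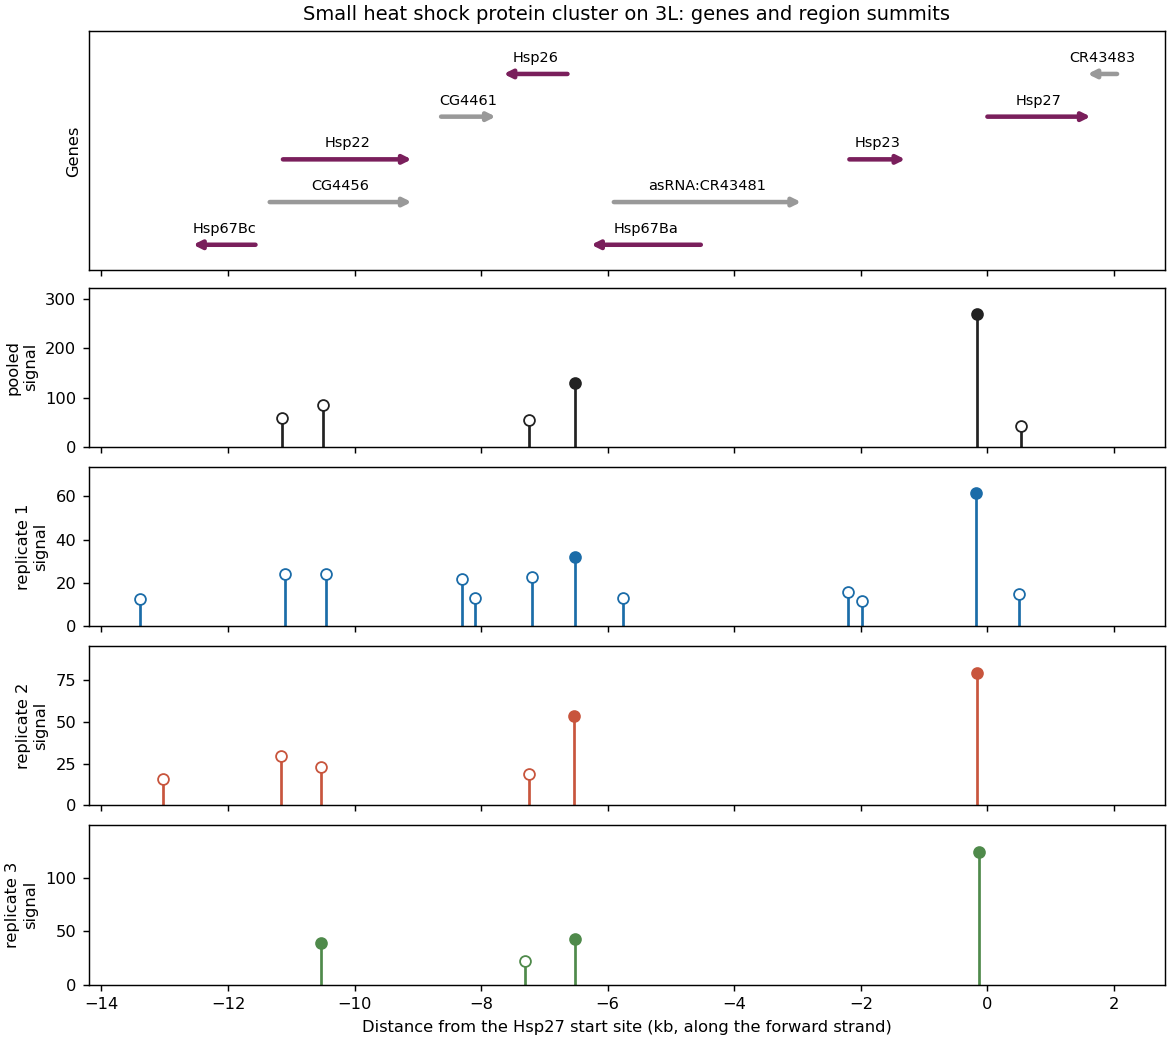
Map of the cluster along the forward strand, with distance from the Hsp27 TSS in kb. The top panel shows genes as arrows in the direction of transcription, in rows for legibility. Genes whose symbol starts with Hsp are purple and all others, CG4456 included, are grey. The lower panels show each summit at its signal in the pooled list and in replicates 1 to 3, filled where it is among the strongest 2239 of its list. Filled points stand in all 4 lists just upstream of Hsp27 and Hsp26, and no pooled summit lies between them.

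Hsp27 (FBgn0001226, 3L 9384063 to 9385694, forward strand), which encodes a small heat shock protein found in the nucleus, had the strongest region of the 10 genes in the pooled list and in replicates 2 and 3. In replicate 1 the promoter region of Hsp83 ranked higher, at 499. The Hsp27 summit at 9383897 lay in intergenic sequence 166 bp upstream of the single TSS, with a pooled signal of 269.0 at rank 302. The signals in replicates 1, 2 and 3 were 61.4, 79.4 and 123.9, at ranks 547, 618 and 157. All 3 replicates placed it among their strongest 2239, replicate 3 highest. Their summits lay 180, 166 and 136 bp upstream, an SD of 22.5 bp. The region, from 9383865 to 9383979, is 115 bp wide, where 2059 of the 2239 thresholded regions are 424 bp wide. Hsp27 has no divergent partner, and no other gene starts within 1000 bp of this summit. A second pooled summit inside the coding sequence, 537 bp downstream of the TSS, ranked 13849 and was met in replicate 1 alone.

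Hsp26 (FBgn0001225, 3L 9376418 to 9377427, reverse strand), a cytosolic small heat shock protein gene, had the second thresholded region of the cluster. The summit at 9377543 lay 116 bp upstream of the outer of its 2 TSSs, in intergenic sequence, with a pooled signal of 128.6 at rank 1460. The signals in replicates 1, 2 and 3 were 31.8, 53.6 and 42.9, at ranks 2140, 1365 and 1686, all within the strongest 2239 and in replicate 1 close to that limit. The replicate summits were 112, 111 and 115 bp upstream, an SD of 2.08 bp. Of the 2221 thresholded regions overlapped in every replicate, 2.03% had summits that close together, and the median SD was 30.1 bp. The sequence shown above is this window. Its 6 GAGAG matches begin between 68 and 35 bp upstream of the outer TSS, on the downstream side of the summit. Its marked pair of heat shock units begins 129 bp upstream. The nearest other TSS, of asRNA:CR43481, was 617 bp from the summit.

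Hsp26 also had a weaker summit in its coding sequence, 554 bp downstream of the inner TSS, with a pooled signal of 55.5 at rank 7309. It recurred in replicates 1, 2 and 3 with signals of 22.6, 19.0 and 22.5 at ranks 4844, 11505 and 6476. None of them is among the strongest 2239.

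Hsp22 (FBgn0001223, 3L 9372931 to 9374964, forward strand), whose protein goes to mitochondria, had only regions below the threshold. The stronger, at 9373562, lay 435 bp upstream of its inner TSS, inside the 5′ untranslated region (UTR) of the longer transcript and the 3′ UTR of CG4456. Its pooled signal was 85.1 at rank 3178, and in replicates 1, 2 and 3 the signals were 24.2, 22.8 and 39.1 at ranks 4002, 7549 and 2030. Only replicate 3 has it among its strongest 2239, and its summits had an SD of 50.5 bp. The weaker, at 9372918, lay 13 bp upstream of the outer TSS, which CG4456 shares, with a pooled signal of 58.1 at rank 6557. Replicates 1 and 2 have it at signals of 24.3 and 29.8, and replicate 3 does not list it.

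Hsp67Bc (FBgn0001229, 3L 9371511 to 9372497, reverse strand), a small heat shock protein gene whose product is linked to autophagy, was counted through that second region alone. The summit was 421 bp upstream of its TSS and 13 bp from that of Hsp22, so the count of Hsp67Bc rests on a region that Hsp22 and CG4456 share. The stronger region fell just outside the window for Hsp67Bc, 1065 bp upstream in the pooled list and 1116, 1029 and 1028 bp in replicates 1, 2 and 3.

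Hsp23 and Hsp67Ba, between the Hsp26 and Hsp27 regions, had almost nothing. The widest interval of the cluster without a pooled region, 6110 bp from 9377755 to 9383864, holds the starts of both genes and of asRNA:CR43481. Hsp23 (FBgn0001224, 3L 9381882 to 9382765, forward strand), a cytosolic small heat shock protein gene, had summits in replicate 1 alone, 17 bp upstream and 194 bp downstream of its TSS, at signals of 15.6 and 11.7 and ranks 14476 and 29777 of 30000. Hsp67Ba (FBgn0001227, 3L 9377802 to 9379534, reverse strand) had no summit within 1000 bp in any list. The nearest was in replicate 1, 1232 bp inside the gene at rank 22913, and the nearest thresholded summit was that of Hsp26, 1991 bp away.

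The promoters of Hsp23, Hsp67Ba and Hsp67Bc, which have no thresholded region, are shown for comparison with the summits of Hsp26 and Hsp27. Hsp22 also lacks one, but the bases before its inner TSS are UTR of its longer transcript and are not shown. They are upstream sequences of dm6 ending at the base before the TSS, without UTR bases, in the same notation. The windows are chr3L:9381632-9381881 (forward strand), chr3L:9379535-9379784 (reverse) and chr3L:9372498-9372721 (reverse).
Hsp23 promoter: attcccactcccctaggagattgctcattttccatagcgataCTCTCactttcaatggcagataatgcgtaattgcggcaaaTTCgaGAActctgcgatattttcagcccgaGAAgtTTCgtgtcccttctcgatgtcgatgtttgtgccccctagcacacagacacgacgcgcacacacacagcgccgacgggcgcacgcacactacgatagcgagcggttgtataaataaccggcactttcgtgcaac
Hsp67Ba promoter: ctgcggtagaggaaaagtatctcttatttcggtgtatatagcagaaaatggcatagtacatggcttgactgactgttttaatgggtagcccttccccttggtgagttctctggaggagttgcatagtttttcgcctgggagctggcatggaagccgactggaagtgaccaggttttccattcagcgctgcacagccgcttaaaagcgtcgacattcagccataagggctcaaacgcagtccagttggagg
Hsp67Bc promoter: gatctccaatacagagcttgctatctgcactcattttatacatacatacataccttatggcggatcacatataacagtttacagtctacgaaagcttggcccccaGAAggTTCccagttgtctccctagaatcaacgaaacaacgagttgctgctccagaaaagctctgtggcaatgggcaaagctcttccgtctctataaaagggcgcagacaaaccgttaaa
Hsp23, with no region above rank 14476 in any list, holds 2 pairs of heat shock units, beginning 169 and 139 bp upstream, and 1 GAGAG match. Hsp67Bc holds 1 pair, 120 bp upstream, and Hsp67Ba none. Counted from 250 bp before to 50 bp after each TSS, Hsp26 holds 3 pairs at its outer TSS and 2 at its inner one. These Hsp26 windows overlap, and Hsp27 holds no pair in its window. Sequence beyond these windows and the summit windows was not searched for pairs, so pairs further upstream of Hsp27 would be missed. The summit windows shown earlier are shorter, so their counts do not compare directly with those of the promoters. At the inner TSS of Hsp22, 2 pairs begin 189 and 88 bp upstream, with 5 GAGAG matches, the most at any TSS of the 4 small heat shock protein genes without a thresholded region.

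Hsp83 (FBgn0001233, 3L 3192969 to 3197059, forward strand) encodes the fly Hsp90, which is abundant without heat and rises with it. It had 2 thresholded regions of like signal. The promoter summit at 3193087 lay 118 bp downstream of the outer TSS and 129 bp upstream of the inner one, in the 5′ UTR of the longer transcript, with a pooled signal of 151.6 at rank 1068. The summit at 3194253 lay in an intron 1037 bp downstream of the inner TSS, just outside the window, with a pooled signal of 157.7 at rank 988.

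The replicates differed at both Hsp83 sites. The promoter signals were 64.5 and 71.9 in replicates 1 and 2, at ranks 499 and 757, and replicate 3 lists no region there. Its single summit within 1000 bp lay 474 bp upstream of the outer TSS at a signal of 14.3 and rank 18216. That summit, at 3192495, was beside the TSS of the neighbouring gene CG14965 at 3192491. The intron region was present in all 3 replicates, with signals of 21.4, 63.1 and 65.3 at ranks 5614, 984 and 679. It was thus among the strongest 2239 in replicates 2 and 3, and below them in replicate 1. The intron summits had an SD of 13.5 bp. CG14965, the divergent partner, starts 596 bp from the promoter summit.

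The sequence upstream of the outer Hsp83 TSS is shown because it is the only one of the 10 promoters with the DNA replication-related element TATCGATA, in capitals, which is found in promoters of many broadly active fly genes. The window is chr3L:3192768-3192968 (forward strand).
Hsp83 upstream: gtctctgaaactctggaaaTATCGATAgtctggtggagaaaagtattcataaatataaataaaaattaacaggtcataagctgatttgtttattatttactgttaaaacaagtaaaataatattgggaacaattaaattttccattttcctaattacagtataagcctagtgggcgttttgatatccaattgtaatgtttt
The element begins 182 bp upstream of the outer TSS. The 201 bp windows at both Hsp83 summits hold no match to it, and the promoter summit window holds 1 pair of heat shock units.

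Hsc70-4 (FBgn0266599, 3R 15242687 to 15246614, forward strand) encodes the main cytosolic Hsp70 relative of unstressed cells. It was the gene closest to the threshold, with a pooled signal of 108.5 at rank 2051 of 2239. The summit at 15242531 lay 156 bp upstream of the first of 6 TSSs, in intergenic sequence, and 295 bp from the TSS of its divergent partner tefu, which encodes the fly ATM kinase. The signals in replicates 1, 2 and 3 were 14.8, 29.3 and 51.7 at ranks 16874, 4394 and 1148. Only replicate 3 has it among its strongest 2239, and replicate 1 ranks it far below. The positions differed little, with summits 169, 153 and 138 bp upstream, an SD of 15.5 bp. A second pooled region, 1 bp from the TSS at 15243156, ranked 14350.

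Hsc70-5 (FBgn0001220, 2R 14252598 to 14256192, reverse strand) encodes the mitochondrial Hsp70. Its summit at 14256180 lay 12 bp downstream of the outer TSS, in the 5′ UTR, with a pooled signal of 190.7 at rank 648, second to Hsp27 among the 10 genes. The signals in replicates 1, 2 and 3 were 35.5, 58.8 and 94.1 at ranks 1686, 1136 and 284, all within the strongest 2239. The replicate summits ranged from 76 bp downstream to 7 bp upstream of the outer TSS, an SD of 41.6 bp. The divergent partner CG8531 starts 313 bp from the pooled summit. A weaker pooled summit 189 bp upstream of the outer TSS, at a signal of 53.6 and rank 7844, lay 112 bp from the start of CG8531.

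Hsf (FBgn0001222, 2R 18130303 to 18134634, reverse strand) had no thresholded region. A pooled summit at 18135384, 750 bp upstream of its TSS, had a signal of 41.6 at rank 14305, near the lowest pooled signal of 40.2. It lay 42 bp from the TSS of Pcl, the Polycomblike gene, which encodes a partner of a Polycomb repressive complex. Replicate 3 has a region there at a signal of 15.0 and rank 16393, and replicates 1 and 2 have none within 1000 bp of the Hsf TSS.

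**Figure D4:**
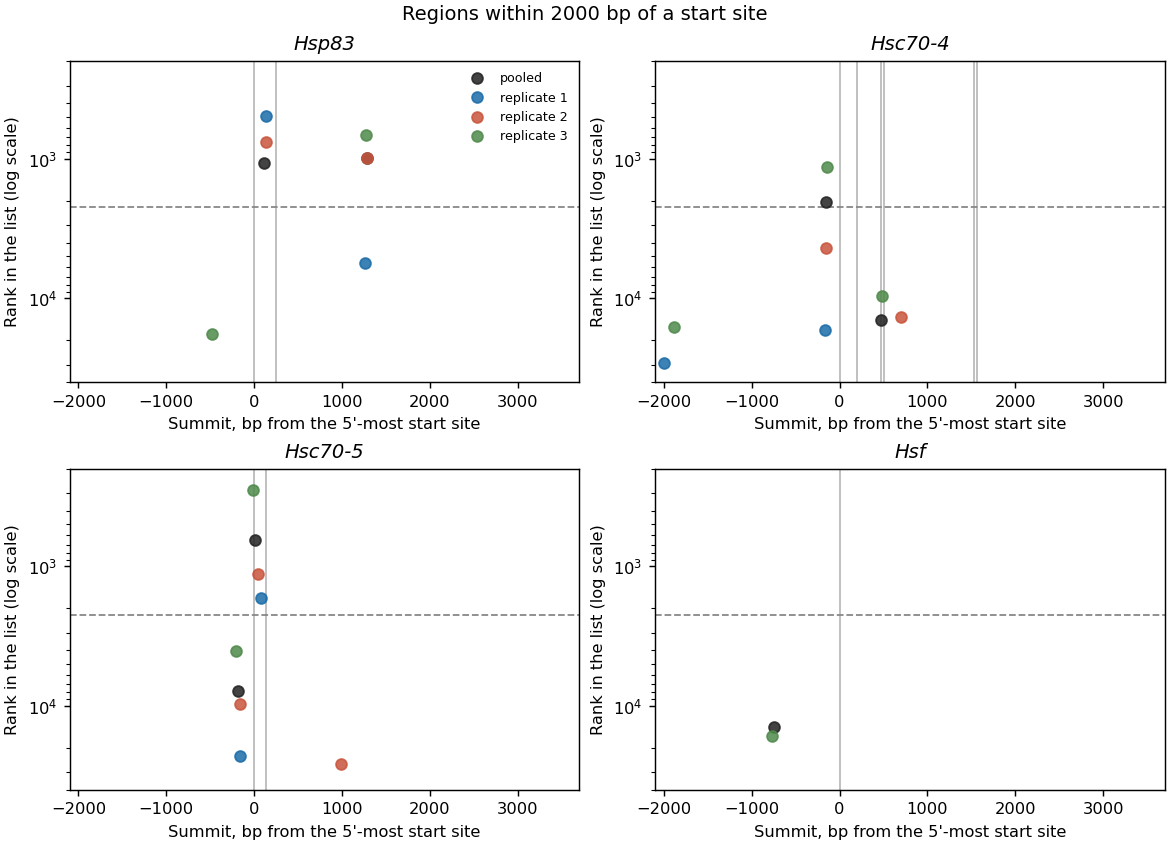
Summits within 2000 bp of a TSS of Hsp83, Hsc70-4, Hsc70-5 and Hsf, by distance from the outermost TSS in bp (positive downstream) and by rank in the list (log scale, strongest at the top), for the pooled list (black) and replicates 1 (blue), 2 (red) and 3 (green). Grey vertical lines are TSSs and the dashed line is rank 2239. At Hsp83 replicate 3 is missing from the promoter group and leads the intron group, and at Hsc70-4 the replicates share a position but spread from rank 1148 to 16874.

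Among thresholded regions in general, 54.6% were overlapped by a region among the strongest 2239 of all 3 replicates, 31.3% of 2, 13.5% of 1 and 0.625% of none. The regions at Hsp26, Hsp27 and Hsc70-5 belong to the first kind, both Hsp83 regions to the second and that of Hsc70-4 to the third. The summit SDs of the genes' regions were at or above the SDs of 37.7% of the regions for Hsp27, 20.1% for the Hsp83 intron, 23.8% for Hsc70-4 and 63.6% for Hsc70-5. The spread of positions at the Hsp26 region alone was in the lowest few percent.

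The motifs were then counted in promoters from 250 bp before to 50 bp after each TSS, on both strands, and in 201 bp windows at the 6 thresholded summits of the genes. A heat shock element of 3 adjacent alternating units with exact cores was found at 1 gene, Hsc70-4, near its TSS at 15243156, and in 0.558% of protein-coding genes. It was in none of the 6 summit windows and in 0.179% of the 2239 thresholded windows. Pairs of units were found at 6 of the genes, Hsp22, Hsp23, Hsp26, Hsp67Bc, Hsp83 and Hsc70-4, and at 19.8% of protein-coding genes. Pairs were in 3 of the 6 summit windows, those of Hsp26, the Hsp83 promoter and Hsc70-4, and in 9.65% of thresholded windows. Pairs are part of every longer element, and a gene with several TSSs, such as Hsc70-4, offers more sequence to match. The search allowed no mismatch, and heat shock elements often depart from the exact letters.

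GAGAG was found at 5 of the genes, against 36.2% of protein-coding genes, and in 1 of the 6 summit windows, that of Hsp26, against 25.3% of thresholded windows. TATAAA, a form of the TATA box, was found at 8 genes, all but Hsp67Ba and Hsf, against 51.2%, and in 2 of 6 windows against 34.4%. It began 27 or 28 bp upstream of a TSS of Hsp22, Hsp23, Hsp26, Hsp27, Hsp67Bc and Hsc70-4, and 30 bp upstream of the inner TSS of Hsp83. The share of protein-coding genes with a match at such a position was not counted, so this placement has no background. TATCGATA was found at Hsp83 alone, against 10.2% of genes, and in none of the 6 windows against 3.89%. CAGCTG, an E-box form, was found at Hsp22 alone, against 22.3% of genes, and in none of the 6 windows against 9.07%. No motif searched was shared by all 6 windows. Their GC content was 30.8% at Hsp26 and at the Hsp83 intron, 34.3% at Hsc70-5, 36.3% at Hsp27, 39.3% at Hsc70-4 and 45.3% at the Hsp83 promoter, around a median of 35.8% over thresholded windows (quartiles 31.8% and 41.3%).

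Other genes of the heat shock response and of chaperone systems were taken from a list of 35. A thresholded summit lay within 1000 bp of a TSS at 4 of them, 11.4%, beside the 13.3% of protein-coding genes. In the strongest 2239 regions of replicates 1, 2 and 3 the counts were 5, 4 and 5, a mean of 4.67 ± 0.577 (SD, n = 3). In the pooled list 19 of 35 had a summit, 54.3%, beside 45.6% of protein-coding genes. The thresholded share lay near that of all genes, and the pooled share was somewhat higher. The 35 include 6 Hsp70 copies without a summit, where the absence is uncertain for the reason given below. They also include the non-coding gene lncRNA:Hsromega, while the background is of protein-coding genes. The shares are thus only roughly comparable.

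The strongest of these was mrj, a DnaJ-type cochaperone gene, with 3 thresholded summits and a pooled signal of 412.5 at rank 118. Replicates 1, 2 and 3 gave signals of 107.4, 173.9 and 131.1 at ranks 154, 107 and 143. Its region ranked above that of Hsp27 in every list. For these genes, replicate ranks are of the strongest summit near a TSS in each list and were not matched to the pooled region. lncRNA:Hsromega, the heat-induced non-coding RNA gene that organises nuclear omega speckles, had a pooled signal of 246.7 at rank 367. Its replicate ranks were 657, 340 and 359. The pooled summit lay 229 bp downstream of a TSS, but that of replicate 3 lay upstream of one and may be another region. stv, which encodes the BAG-domain cochaperone starvin, had 2 thresholded summits, the stronger at a signal of 167.3 and rank 864. Its replicate ranks were 847, 1541 and 648. The summits of replicates 2 and 3 lay closer to a TSS than the pooled one and may not be the same region. Droj2, another DnaJ-type gene, had a signal of 107.9 at rank 2068, close to the threshold, and shares its region with the mitochondrial ribosomal protein gene mRpS21. mrj, lncRNA:Hsromega and stv were within the strongest 2239 of all 3 replicates, and Droj2 in replicate 1 alone, with replicate ranks of 1731, 3916 and 2803.

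Of the rest, 15 had a pooled summit only. The strongest were those of Sgt, a small TPR cochaperone gene, at a signal of 98.5 and rank 2451, CG1416, which encodes the Hsp90 activator Aha1, at 89.8 and rank 2889, CG4456 at 85.1 and rank 3178, and Gp93, which encodes the Hsp90 of the endoplasmic reticulum, at 81.0 and rank 3475. The CG4456 region is the same as the stronger region of Hsp22 and is not a separate one. No summit in any list was found at 9 of the 35 genes, among them all 6 Hsp70 copies, the classic heat-induced genes on 3R. These copies are nearly identical, and the placement of reads that match several of them is not described in the labels, so the absence of a region there is uncertain.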

How the data were processed

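Chromatin immunoprecipitation and sequencing was done on 3 biological replicates, with chromatin sheared by sonication to 200 to 800 bp, per the labels. The authors called regions, background included, on each replicate against 1 shared control and on the pooled replicates, and an optimal set was filtered by the irreproducible discovery rate, per the README file headers. Aligner, caller, threshold and versions: none is given in the sources used here. A region has a signal value, a −log10 q value and a summit, as the authors deposited them. Regions were ranked by signal and not by −log10 q, which is at its highest value of 3.53 in 1697 of 2239 thresholded regions.

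The dm6 lists were used and the dm3 lists were not. TSSs came from Ensembl release 115 and sequence from RefSeq's Release 6, the same assembly as dm6. A gene was counted when a summit lay within 1000 bp of any of its TSSs, and motifs were matched exactly. Of 36 names of other heat shock and chaperone genes, 5 were matched by synonym and 35 genes remained. Named are the 10 members, genes with a TSS within 1000 bp of their summits, genes in the cluster's span, and, of the other genes, those with a thresholded summit and up to 4 with a pooled one only. The Hsc70 genes among the others are also named. The members and lists were chosen with earlier results of these data known, so results are descriptions without tests. Counting and matching were done in Python 3.11.15 with figures in matplotlib 3.10.9, and were checked on simulated regions and sequences. Alternatives were the window, whole regions against summits, the first TSS only, a stricter list, leaving out each replicate, the number of regions taken per replicate, and the form of the heat shock element.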

Additional observations from a re-analysis of the deposited data

How the results depend on the processing

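With windows of 250, 500 or 2000 bp, whole regions in place of summits, or the first TSS only, the count of the 10 genes with a thresholded summit was 5, or 6 with Hsp67Ba at 2000 bp. The share of all protein-coding genes was 9.29%, 11.6% and 16.5% with those windows, 13.9% with whole regions and 11.9% with the first TSS. With only the strongest 1000 regions it was 2 (Hsp27 and Hsc70-5), with 1 of the small heat shock protein genes, 1 of the constitutive chaperone genes and 936 protein-coding genes (6.7%). Leaving out each replicate in turn, with regions required among the strongest 2239 of both others, gave 3 to 4 of the 10 genes, 2 small heat shock protein genes each time, 1 to 2 constitutive ones and 1235 to 1283 protein-coding genes. Hsp83 was kept without replicate 3 and lost without replicate 1 or 2, and Hsc70-4 was lost each time. The mean of 4.33 genes per replicate was 7.33 with all regions of each list, 6 with double the number of regions (20.2%, 21.2% and 23.7% of protein-coding genes in replicates 1, 2 and 3), and 4.33 with mitochondrial regions left out, a choice made after seeing the data. Pooled counts were 6, 7 and 9 with windows of 250, 500 and 2000 bp, beside 29.9%, 38.3% and 54.7% of protein-coding genes, and 7 beside 32.1% with the top 50% of the list. The count of genes with a heat shock element was 6 with pairs of units, beside 19.8% of protein-coding genes, and 2 (Hsp23 and Hsc70-4) within 1000 bp of a TSS, beside 2.93%. The count of the 35 other genes with a thresholded summit ran from 3 to 5. It was 3 with only the strongest 1000 regions, beside 6.7% of protein-coding genes, and 5 with the 2000 bp window, beside 16.5%. Depth is unknown, and the 30000-region ends of the lists of replicates 1 and 2 limit what can be said of missing weak regions. No paired analysis was possible because there is 1 group.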
